A study of Mus musculus with 9 samples.

Results

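The genes described here build the interstitial matrix, the collagen meshwork of connective tissue. They are the fibrillar collagen genes Col1a1, Col1a2, Col3a1 and Col5a1, the type VI collagen genes Col6a1, Col6a2 and Col6a3, the proteoglycan gene Dcn, the calcification inhibitor gene Mgp and the collagen cross-linking enzyme gene Lox. The 10 genes were picked by name, and their probes were found through the RefSeq accession that the scanner files give for each probe. They had 11 probes, 2 for Lox and 1 for every other gene. They are 10 of 20660 named genes on the array, and all 10 were among the 15016 genes tested, which passed the scanner's test of being well above background on 3 or more of the 9 arrays. They were picked with their course over the days known, so every difference between days is given for them as a description with no test.

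The RNA was that of a PKm1 knock-in, a PKm2 knock-in and a wild type line, 3 lines of mouse embryonic stem (ES) cells. PKm1 and PKm2 are alternative splice products of Pkm, which encodes a pyruvate kinase of glycolysis. Each line was sampled undifferentiated with LIF, the cytokine that maintains ES cells (day 0), and as floating embryoid bodies without LIF at days 3 and 7. Its question was whether the knock-in lines form the germ layers. A genotype was 1 line, and each line had 1 array per day with no repeat. Days were therefore compared over 3 lines and genotypes over 3 days. A p-value reflects the scatter among these arrays alone, and neighbouring levels of 1 gene cannot be set against a repeat error. The sources used here do not give the strain, the knock-in construct, the number of clones or any use of feeders.

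Fibrillar collagens are secreted as procollagens, trimmed, and assembled into fibrils that Lox cross-links. Dcn, a small leucine-rich proteoglycan, binds those fibrils, and type VI collagen forms beaded filaments between fibrils and the cell surface. Mgp is a vitamin K dependent protein that inhibits calcification of soft tissue and binds bone morphogenetic proteins. Fibroblasts and other mesenchymal cells are the main source of this matrix, while early embryos lay down mainly basement membrane.

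Values are log2 of the scanner's processed signal, scaled so that the 75th percentile was equal on all arrays and floored at 5. The share of spots well above background was 54.2 to 61.6 percent, with 0 saturated spots. All 10 ES cell markers were well above background on all 9 arrays. Slide 1 held 5 arrays (the wild type line at days 0 and 7, the PKm1 knock-in line at day 3 and the PKm2 knock-in line at days 0 and 3), slide 2 held 3 and was scanned on another day, and the PKm2 knock-in array of day 7 was alone on slide 3. In these bulk samples, fewer cells of a type and less RNA per cell cannot be told apart. A ratio to an array that was not well above background is written as at least N-fold, against the higher of the lowest signal detected on that array and the probe's own.

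The 10 genes were sorted by 2 rules over the days. A gene was classed as lost for good where its signal lay more than 1 log2 unit, or 2-fold, below day 0 at both day 3 and day 7 in all 3 lines. It was classed as returning where, in at least 2 lines, day 3 lay more than 2-fold below day 0 and day 7 did not. Col6a1, Col6a2, Col6a3, Dcn and Mgp were lost for good, Col1a1, Col1a2, Col3a1 and Lox were returning, and Col5a1 met neither rule. A gene classed as lost for good could still be higher at day 7 than at day 3, as Col6a1 was in 3 of 3 lines and Dcn in 2 of 3. Among 13426 genes well above background at day 0 in all 3 lines, 0.596 percent were lost for good and 4.52 percent were returning by the same rule. All 4 returns were in the PKm1 knock-in and wild type lines. In the PKm2 knock-in line Col1a1 and Col1a2 stayed more than 2-fold below day 0, and Col3a1 had no 2-fold dip at day 3. Lox was not well above background in that line after day 0, and was at least 1.21-fold lower at day 3 and at least 1.18-fold lower at day 7. The classes depend on the settings: with normexp background correction Dcn and Mgp alone were lost for good and Lox was not returning, and at a 4-fold threshold Col6a1 and Col6a2 were not lost for good. Just inside the threshold lay Col6a2 in the PKm2 knock-in line (-1.17, day 7 minus day 0) and Col6a1 in the wild type line (-1.23). Just outside lay Col1a2 in the wild type line (-0.98), the value on which its class as returning rests.

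**Figure D1:**
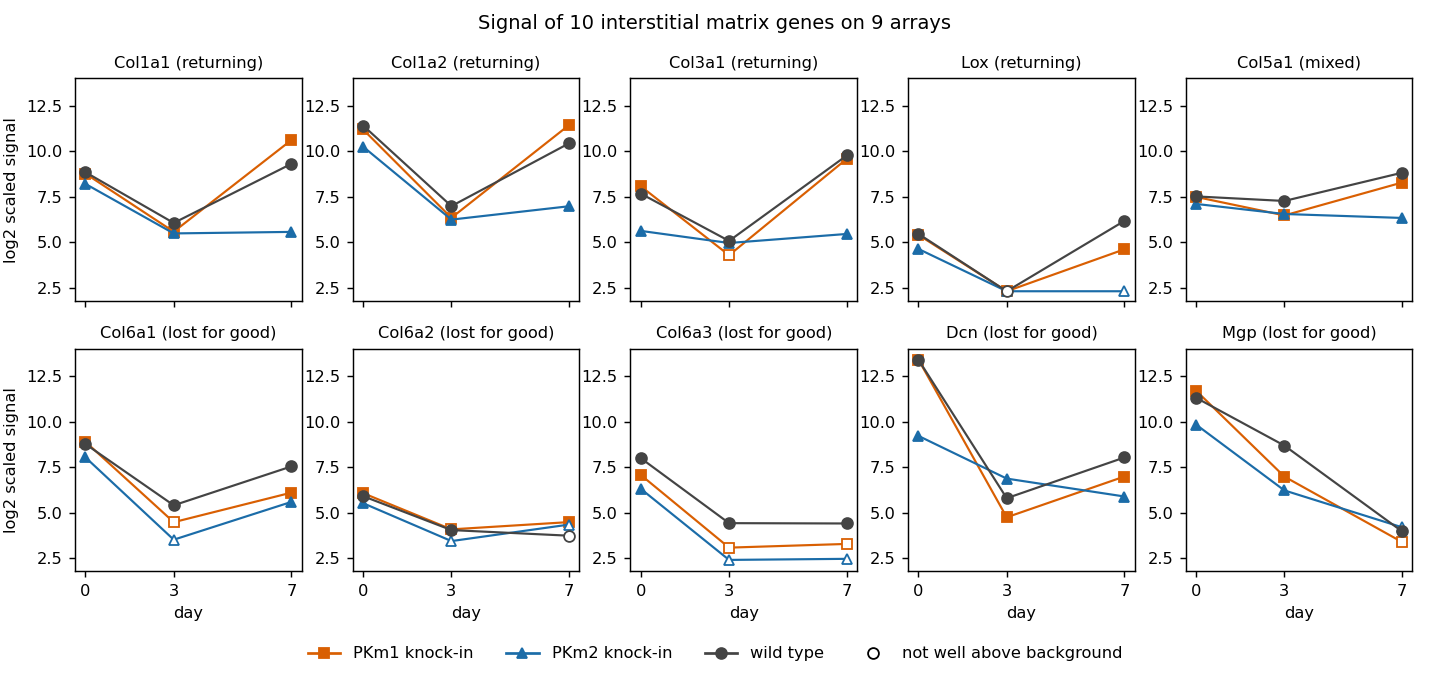
The log2 scaled signal of the 10 genes (vertical axis) at days 0, 3 and 7 (horizontal axis) in the 3 lines, 1 array per point, with open symbols where the probe was not well above background. Col1a1, Col1a2, Col3a1 and Lox dip at day 3 and come back at day 7 in the PKm1 knock-in and wild type lines. In all 3 lines Col6a3 stays low after day 0, and Mgp is lower at each later day.

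Promoters of 2 returning and 2 lost genes are printed as examples of the classes, as the bases just before the RefSeq gene start (RefSeq, build GRCm38.p6, written 5′ to 3′ on the gene's strand). Of the 10 genes, 6 were matched to the promoter table. Capitals mark matches to CCAAT, the box bound by the collagen activator NF-Y, TATAAA, the TATA box, GGGCGG, the Sp1 box, and GGAATG, the core bound by TEAD factors, on either strand. No marked match overlaps another.
Col1a2, chr6:4505368-4505617, plus strand: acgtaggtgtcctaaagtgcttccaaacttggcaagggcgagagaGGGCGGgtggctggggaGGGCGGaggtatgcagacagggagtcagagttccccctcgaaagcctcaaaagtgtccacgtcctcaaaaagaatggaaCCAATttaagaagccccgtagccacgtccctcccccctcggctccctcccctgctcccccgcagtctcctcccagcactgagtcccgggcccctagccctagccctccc
Col3a1, chr1:45311288-45311537, plus strand: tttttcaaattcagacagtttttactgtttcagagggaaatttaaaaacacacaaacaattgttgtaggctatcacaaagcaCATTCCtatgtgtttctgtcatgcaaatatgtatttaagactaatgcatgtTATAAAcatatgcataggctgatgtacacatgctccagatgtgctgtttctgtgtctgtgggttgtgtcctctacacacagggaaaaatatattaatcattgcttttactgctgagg
Col6a1, chr10:76726045-76726294, minus strand: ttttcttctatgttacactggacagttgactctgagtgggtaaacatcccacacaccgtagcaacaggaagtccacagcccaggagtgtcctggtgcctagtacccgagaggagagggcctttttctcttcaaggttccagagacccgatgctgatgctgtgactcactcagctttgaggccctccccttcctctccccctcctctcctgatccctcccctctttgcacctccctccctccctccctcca
Col6a3, chr1:90844002-90844221, minus strand: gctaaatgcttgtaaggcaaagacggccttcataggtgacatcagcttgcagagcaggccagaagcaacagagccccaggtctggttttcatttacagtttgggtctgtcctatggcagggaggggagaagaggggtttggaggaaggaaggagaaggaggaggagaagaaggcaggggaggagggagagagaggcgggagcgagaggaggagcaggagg
In windows of 300 bases around the start, CCAAT is found in 37.4 percent of 32851 promoters, TATAAA in 13.6 percent, GGGCGG in 35.7 percent and GGAATG in 14.7 percent. Col1a2 holds CCAAT 109 bases before the start and GGGCGG at 205 and 188 bases before it, and CCAAT on the other strand at the start itself, outside the printed bases. Col3a1 holds TATAAA 117 bases and the reverse complement of GGAATG 168 bases before the start. None of these letters is in the Col6a1 or Col6a3 window, which says nothing about the factors. The classes do not divide by these letters: Col6a2, also lost for good, has GGGCGG at 3 places and GGAATG at 1, on the other strand, in 1 of its 2 windows. Its other window has GGGCGG, also on the other strand, 175 bases before the start. The longest unbroken stretch of purines or of pyrimidines, a feature looked for after the sequences had been seen, was 34 bases in Col6a3 and 29 bases in Col6a1, against 13 bases in Col1a2 and 9 bases in Col3a1, with 18 bases in the longer Col6a2 stretch. Col5a1, which met neither rule, had 12 bases, and the shorter Col6a2 stretch had 5 bases. Stretches at least as long are found before 0.76 percent (Col6a3), 1.38 percent (Col6a1), 29.4 percent (Col1a2), 79.4 percent (Col3a1), 8.95 percent (Col6a2, longer stretch), 99.99 percent (Col6a2, shorter stretch) and 38.5 percent (Col5a1) of promoters. Since the feature was picked from these sequences, it is no evidence about the classes.

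Type I collagen, the main fibril protein of skin, bone and tendon, is built from the chains of Col1a1 and Col1a2. At days 0, 3 and 7, Col1a1 stood at 8.78, 5.59 and 10.62 in the PKm1 knock-in line, at 8.21, 5.50 and 5.58 in the PKm2 knock-in line, and at 8.85, 6.07 and 9.32 in the wild type line. Its highest array was day 7 of the PKm1 knock-in line, and its 4 lowest were the 3 day 3 arrays and day 7 of the PKm2 knock-in line. Against day 0, Col1a1 at day 7 was 3.59-fold higher in the PKm1 knock-in line, 6.21-fold lower in the PKm2 knock-in line and 1.38-fold higher in the wild type line. Col1a2 stood at 11.20, 6.35 and 11.45 in the PKm1 knock-in line, at 10.26, 6.25 and 6.99 in the PKm2 knock-in line, and at 11.42, 6.99 and 10.44 in the wild type line. Against day 0, Col1a2 at day 3 was 28.8-fold lower in the PKm1 knock-in line, 16.0-fold lower in the PKm2 knock-in line and 21.5-fold lower in the wild type line. The 2 chains kept almost the same course over the 9 arrays (Pearson r = 0.956, a description, since the arrays share lines and days).

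Col3a1 encodes type III collagen, which accompanies type I in soft, elastic tissue. Col3a1 stood at 8.08, 4.30 and 9.59 in the PKm1 knock-in line, at 5.63, 4.97 and 5.47 in the PKm2 knock-in line, and at 7.68, 5.08 and 9.77 in the wild type line. It was not well above background at day 3 of the PKm1 knock-in line, where the difference from day 0 was at least 13.8-fold. Day 7 lay above day 0 by 2.84-fold in the PKm1 knock-in line and by 4.27-fold in the wild type line, while in the PKm2 knock-in line day 7 was 1.12-fold below day 0. The PKm2 knock-in line was already low in Col3a1 at day 0 and stayed within 1.58-fold of that level.

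Col5a1, a chain of the minor fibrillar collagen that starts and limits fibril growth, varied least. Its log2 signal was 7.50, 6.48 and 8.29 in the PKm1 knock-in line, with 7.11, 6.56 and 6.34 in the PKm2 knock-in line, and 7.53, 7.28 and 8.83 in the wild type line. The dip at day 3 passed 2-fold in the PKm1 knock-in line alone, at 2.02-fold, just beyond the threshold. At day 7 Col5a1 stood above day 0 by 1.73-fold in the PKm1 knock-in line and by 2.47-fold in the wild type line, and below it by 1.70-fold in the PKm2 knock-in line.

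Lox encodes lysyl oxidase, the copper enzyme that starts the cross-linking of collagen and elastin. By the brighter probe Lox stood at 5.42, 2.32 and 4.63 in the PKm1 knock-in line, at 4.64, 2.32 and 2.32 in the PKm2 knock-in line, and at 5.47, 2.32 and 6.18 in the wild type line. The value 2.32 is the floor, and the probe was not well above background on those 4 arrays. Against day 3, Lox at day 7 was at least 1.29-fold higher in the PKm1 knock-in line and at least 4.42-fold higher in the wild type line, with both arrays of the PKm2 knock-in line below detection. The other Lox probe was well above background on 3 of 9 arrays and followed the same course (Pearson r = 0.963 over 9 arrays, largest gap 0.92 on the log2 scale).

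The type VI collagen genes encode the 3 chains of one filament. Col6a1 stood at 8.89, 4.48 and 6.10 in the PKm1 knock-in line, at 8.04, 3.52 and 5.59 in the PKm2 knock-in line, and at 8.77, 5.40 and 7.54 in the wild type line. It came back in part, to 14.4 percent of its day 0 signal in the PKm1 knock-in line, 18.4 percent in the PKm2 knock-in line and 42.7 percent in the wild type line. The signal of Col6a3 was 7.07, 3.08 and 3.29 in the PKm1 knock-in line, with 6.31, 2.41 and 2.47 in the PKm2 knock-in line, and 7.99, 4.42 and 4.41 in the wild type line. Both knock-in lines were not well above background for Col6a3 at days 3 and 7, and in the wild type line it was 12.0-fold below day 0 at day 7. For Col6a2 the values were 6.07, 4.08 and 4.48 in the PKm1 knock-in line, with 5.52, 3.44 and 4.35 in the PKm2 knock-in line, and 5.91, 4.05 and 3.74 in the wild type line. Col6a2 lay near the detection limit after day 0, and 4 of its 6 later arrays were not well above background.

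Dcn encodes decorin, the proteoglycan that coats collagen fibrils and binds TGF-beta, and had the largest ratios between days 0 and 3 of the 10 genes in the PKm1 knock-in and wild type lines. Dcn stood at 13.40, 4.75 and 6.99 in the PKm1 knock-in line, at 9.21, 6.87 and 5.89 in the PKm2 knock-in line, and at 13.39, 5.79 and 8.03 in the wild type line. It was well above background on all 9 arrays. Against day 0, Dcn at day 3 was 403-fold lower in the PKm1 knock-in line, 5.08-fold lower in the PKm2 knock-in line and 194-fold lower in the wild type line. At day 7 the signal was 1.17 percent of day 0 in the PKm1 knock-in line, 9.97 percent in the PKm2 knock-in line and 2.43 percent in the wild type line. The smaller ratio in the PKm2 knock-in line goes with its day 0 signal, which was 4.18 log2 units below that of the wild type line on the same slide. It also goes with its day 3 signal, which was 2.11-fold above the wild type line and 4.36-fold above the PKm1 knock-in line. Between days 3 and 7 Dcn was 4.72-fold higher in the PKm1 knock-in line, 1.98-fold lower in the PKm2 knock-in line and 4.71-fold higher in the wild type line.

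Mgp encodes matrix Gla protein and, between days 3 and 7, was lower at the later day in all 3 lines. It stood at 11.69, 6.98 and 3.39 in the PKm1 knock-in line, at 9.83, 6.22 and 4.20 in the PKm2 knock-in line, and at 11.31, 8.68 and 3.97 in the wild type line. In every line Mgp was lower at each later day, and at day 7 it was not well above background in either knock-in line. Against day 0, Mgp at day 7 was at least 207-fold lower in the PKm1 knock-in line, at least 42.9-fold lower in the PKm2 knock-in line and 161-fold lower in the wild type line. It was the member that ran lower from day 3 to day 7 without overlap between the arrays, and Col3a1 and Col6a1 were the pair that ran higher without overlap.

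Day 3 arrays lay below all day 0 arrays, without overlap, for 9 of 10 genes, a pattern shown by 14.3 percent of all genes tested. At day 7 the same held for 5 of 10 genes and for 8.91 percent of all genes. Day 7 lay without overlap below day 3 for 1 of 10 genes and above it for 2 of 10, against 21.6 percent and 10.1 percent of all genes. These comparisons share the arrays that the choice of the genes used. The median difference over the 10 genes from day 0 to day 3 was -3.89 in the PKm1 knock-in line, -2.53 in the PKm2 knock-in line and -2.97 in the wild type line, with undetected arrays at their floored signal, while the median over all genes tested lay between 0.04 and 0.17. From day 0 to day 7 it was -1.19, -2.54 and -1.10 in the same order of lines. The day 7 medians of the PKm1 knock-in and wild type lines and the day 3 median of the PKm2 knock-in line each compare arrays of the same slide. With the slide as a block, which leaves out day 7 of the PKm2 knock-in line, the median was -3.27 at day 3 and -1.08 at day 7.

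**Figure D2:**
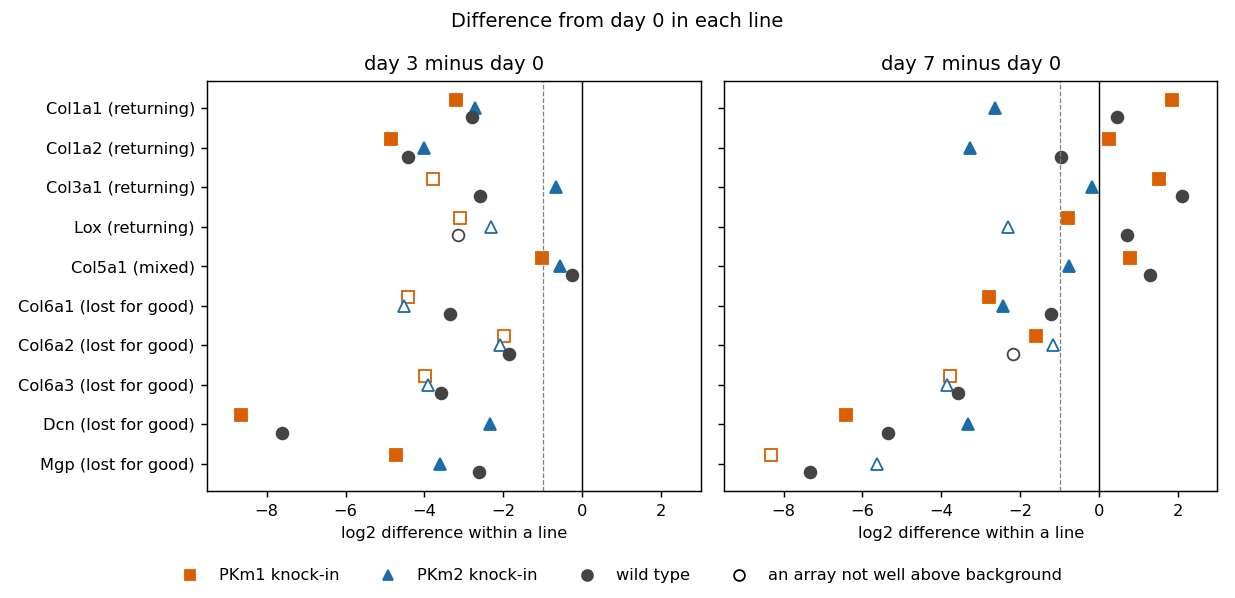
The log2 difference from day 0 at day 3 (left) and day 7 (right) for the 10 genes in each line, with open symbols where an array was not well above background and the dashed line at the 2-fold threshold. At day 7 the PKm1 knock-in and wild type lines lie right of the dashed line for the returning genes, and the PKm2 knock-in line lies left of it for Col1a1 and Col1a2. Open symbols are drawn at the floored signal and overstate what was measured, as for Lox in the PKm2 knock-in line, where a 2-fold difference is not shown.

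The genes had been chosen by their course over the days, so differences between the lines were tested. None of the 10 genes passed in limma in any of the 3 comparisons, with 0 of 10 called in each. Of all 15016 genes, 0.0133 percent passed between the PKm1 knock-in and wild type lines, 0.0133 percent between the PKm2 knock-in and wild type lines, and 0 percent between the knock-in lines. In that order of comparisons, 1, 4 and 3 of the 10 genes had an unadjusted p under 0.05, against 12.3, 13.4 and 7.94 percent of all genes. No gene of the 10 lay in the PKm1 knock-in line below wild type without overlap (0 of 10, against 4.71 percent of all genes). The PKm2 knock-in line averaged lower than the wild type line for 10 of 10 genes, with a median log2 difference of -1.61 against 0.04 for all genes. It also averaged lower than the PKm1 knock-in line for 10 of 10, with a median of -0.90 against -0.01 for all genes. The PKm1 knock-in line averaged lower than the wild type line for 7 of 10, with a median of -0.50 against 0.05 for all genes.

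Col6a3 came nearest to the threshold. It averaged 3.73 ± 2.24 in the PKm2 knock-in line and 5.61 ± 2.07 in the wild type line (SD, n = 3 days each, limma log2 difference -1.88 ± 0.18 SE, adjusted p = 0.068, lower on 3 of 3 days). The range of that adjusted p over 24 alternatives was 0.0601 to 0.887. Col6a3 was well above background on 1 of 3 arrays of the PKm2 knock-in line and on 3 of 3 of the wild type line, and its other values in the PKm2 knock-in line were near the floor. In the PKm1 knock-in line the log2 difference of Col6a3 from wild type was -1.13 ± 0.18 SE, lower on 3 of 3 days (limma adjusted p = 0.121). In that line too Col6a3 was well above background on 1 of 3 arrays, so both differences rest on undetected values at days 3 and 7. Against wild type it was at least 1.12-fold lower at day 3 and at least 1.33-fold lower at day 7 in the PKm1 knock-in line. In the PKm2 knock-in line it was at least 1.04-fold lower at day 3, with no bound at day 7. Col6a1 differed between the PKm2 knock-in and wild type lines by -1.52 ± 0.32 SE, lower on each of 3 days (limma adjusted p = 0.135), and Col5a1 was the member without overlap between those lines, as were 6.43 percent of all genes in that direction (log2 difference -1.20, 95% interval -2.27 to -0.14, limma adjusted p = 0.315).

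**Figure D3:**
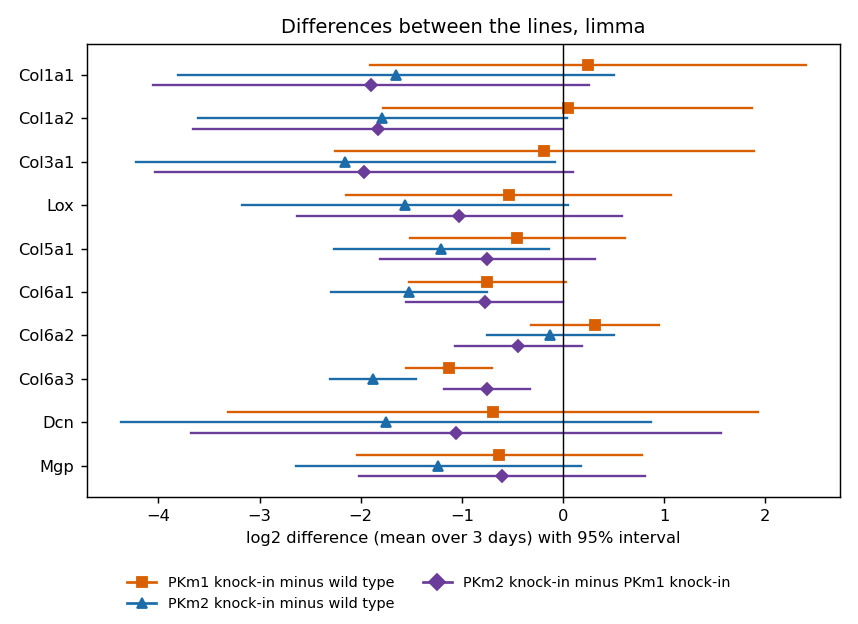
The log2 difference between lines over the 3 days (points) with its 95 percent interval from limma (bars) for each gene, given first for the PKm1 knock-in line minus wild type, then for the PKm2 knock-in line minus wild type and minus the PKm1 knock-in line. All 10 points of the PKm2 knock-in line minus wild type lie below 0, and the intervals of Col3a1, Col5a1, Col6a1 and Col6a3 in that comparison do not cross it before adjustment.

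The 3 days contributed unequally to the PKm2 knock-in values. At day 0 the PKm2 knock-in line lay below wild type for 10 of 10 genes on the same slide, with a median of -0.99 and a range of -4.18 for Dcn to -0.39 for Col6a2. At day 3 it lay below wild type for 8 of 10, with a median of -0.66. At day 7, on the array alone on its slide, the median was -2.31, and the differences reached -4.31 for Col3a1, -3.74 for Col1a1 and -3.46 for Col1a2, while Lox was at least 3.42-fold lower. With the slide as a block the median over the 10 genes became -0.87. On slide 1 at day 3 the PKm2 knock-in line was within a median of -0.10 of the PKm1 knock-in line. The differences ranged from -0.96 for Col6a1, not well above background in either line, to 2.12 for Dcn. At day 7 the PKm2 knock-in line was 5.04 log2 units below the PKm1 knock-in line for Col1a1 (-5.04). That was the largest gap between the knock-in lines for any of the 10 genes on any day.

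Over the 9 arrays, genes of a class varied together more closely than genes of different classes. The classes were set from these same arrays, so this is no evidence for them. The median Pearson r was 0.902 over the 6 pairs of returning genes, 0.842 over the 10 pairs of lost genes and 0.548 over the 20 pairs across classes. Mgp stood apart, with r = 0.026 to Col1a1 and -0.189 to Col3a1, and Col6a1 lay between the classes, with r = 0.864 to Lox and 0.894 to Col6a3. Col5a1, which met neither rule, followed the returning genes (median r = 0.834 over 4 pairs). These are descriptions over arrays that share lines, days and slides.

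The genes whose signal was most like the mean course of the lost genes were Slpi (Pearson r = 0.987 over 9 arrays), Ereg, Il6, Fgf7 and Zfp36l1. Slpi, Ereg and Il6 were each well above background on 3 of 9 arrays, so their r rests largely on day 0 against undetected values. Slpi encodes a protease inhibitor, Ereg and Fgf7 encode growth factors, Il6 a cytokine and Zfp36l1 an RNA-binding protein. Il6 stood at 8.89, 2.32 and 2.32 in the PKm1 knock-in line, at 7.67, 2.32 and 2.36 in the PKm2 knock-in line, and at 8.96, 2.32 and 3.09 in the wild type line, high at day 0 and near the floor afterwards. Most like the returning genes were Csf1 (r = 0.984), which encodes the macrophage growth factor, Vdr, the vitamin D receptor gene, Dynlt3, Efemp2, whose product binds elastin and Lox, and Pcdhb20. Vdr was well above background on 4 of 9 arrays and Pcdhb20 on 3. Csf1 stood at 8.28, 2.56 and 10.57 in the PKm1 knock-in line, at 7.71, 3.67 and 3.87 in the PKm2 knock-in line, and at 8.59, 4.59 and 10.21 in the wild type line. Among the closest to Col1a1 alone were Dynlt3 (r = 0.9955), Tnfaip2, Rnase4 and Csf1, and the closest to Mgp alone were Crabp1 (r = 0.970), Tmem38b, Begain, Zbtb6 and Spata32. Crabp1, a retinoic acid binding protein gene, was 9.27, 7.49 and 6.23 in the PKm1 knock-in line, with 8.82, 7.15 and 7.25 in the PKm2 knock-in line, and 9.36, 8.07 and 6.89 in the wild type line.

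Genes that act on this matrix were read from 8 lists, with 106 genes tested. The lists were chosen with earlier results of these data known, and the tests use the same arrays. Their p-values and shares between days are therefore descriptions, and no independent evidence of a loss across the matrix at day 3. In limma, 9 of the 106 passed at day 3 against day 0, 1 higher and 8 lower, where 4.05 percent of all genes passed, 1.85 percent higher and 2.2 percent lower. Among other matrix proteins, 4 of 20 passed. Fbln5, an elastic fibre protein gene, was at least 18.0-fold lower (n = 3 lines, limma adjusted p = 0.00999), and its values of 3.77, 4.24 and 3.90 at day 3 against 8.87, 8.68 and 7.62 at day 0 (PKm1 knock-in, PKm2 knock-in and wild type lines) do not overlap. Thbs2 and Tnc, genes of matricellular proteins that modulate cell attachment, were at least 4.45-fold and at least 1.55-fold lower (limma adjusted p = 0.0145 and 0.0425). Fbln5, Thbs2 and Tnc were well above background on 0 of 3 arrays of day 3, so each has only a bound. Thbs2 was well above background on 3 of 3 arrays at day 0 and 1 of 3 at day 7. It thus entered the tests only through day 0, where it was high, and stood at the floor on every day 3 array. Its p-value is therefore no evidence of a loss. Mfap5, a microfibril gene, rose by 1.39 on the log2 scale (limma adjusted p = 0.0438). Of collagen-degrading proteases and their inhibitors, 2 of 9 passed, both lower: Mmp3, stromelysin, by -5.79 ± 0.77 SE (limma adjusted p = 0.024) and Ctsk, the collagenase cathepsin K, by -1.77 (limma adjusted p = 0.0369). Each was well above background on 2 of 3 day 3 arrays, so both differences include an undetected value. For Mmp3 that value is the floor, in the PKm1 knock-in line.

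Single genes passed in 3 more lists at day 3, all lower. They were Col14a1, a fibril-associated collagen (1 of 10, at least 1.71-fold lower with 0 of 3 day 3 arrays well above background, limma adjusted p = 0.0432), Loxl3, a relative of Lox (1 of 11, log2 difference -1.77 with 1 of 3 day 3 arrays well above background, limma adjusted p = 0.0443), and Pros1, a vitamin K dependent protein gene like Mgp (1 of 11, log2 difference -1.68, limma adjusted p = 0.0315). None passed of 18 folding enzymes and chaperones, 9 collagen receptors or 18 regulators, with 3, 3 and 5 at an unadjusted p under 0.05, a level that 26.2 percent of all genes reached. Serpinh1, the collagen chaperone HSP47, stood at 11.50, 9.35 and 14.83 in the PKm1 knock-in line, with 11.73, 9.14 and 11.10 in the PKm2 knock-in line, and 11.07, 8.93 and 12.80 in the wild type line (day 3 minus day 0 -2.30, limma adjusted p = 0.111). It was lowest at day 3 in each line and, unlike Col1a1 and Col1a2, was near its day 0 level at day 7 in the PKm2 knock-in line. Of the folding list, P3h2 was well above background on 3 of 9 arrays, Colgalt2 on 0 and every other gene on all 9, and the 18 tested had a median of 0.13 at day 3, against -3.27 for the 10 genes. The calls depend on single arrays: leaving out any array except day 7 of the PKm1 knock-in line moved the count of all genes passing at day 3 by over 1.5 times, to between 2 and 1259, against 608 with all arrays. Fbln5 passed in 19 of 24 alternatives, Thbs2 in 18, Mmp3 in 16, Pros1 in 15 of 25, Mfap5 in 12 of 25, Ctsk and Tnc in 11 of 24, Loxl3 in 9 and Col14a1 in 7.

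At day 7 against day 0, 0 of the 106 genes passed in limma, 29 of them with an unadjusted p under 0.05, and at day 7 against day 3 also 0 passed, 40 with an unadjusted p under 0.05. Of all genes, 0.0932 percent and 0 percent passed, and 14.3 percent and 30.3 percent had an unadjusted p under 0.05. With day 7 of the PKm2 knock-in line left out, 10 of 106 passed against day 0, 7 of them higher, and 36 against day 3, 35 of them higher. Of all genes, 1.51 percent and 15.9 percent passed in the same setting. Those 36 include Serpinh1, the procollagen proteinase gene Bmp1, Loxl2, Sparc, Thbs1, Tgfb2, Ccn2 and Timp2. These counts thus rest on whether that 1 array is included. For Timp2, a metalloproteinase inhibitor gene, the values were 12.74, 8.60 and 12.76 in the PKm1 knock-in line, with 12.47, 8.82 and 8.52 in the PKm2 knock-in line, and 13.22, 9.24 and 13.60 in the wild type line. Between the lines 0 of 106 passed in each of the 3 comparisons, with 10, 17 and 13 at an unadjusted p under 0.05, where 12.3, 13.4 and 7.94 percent of all genes reached that level.

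Of 9 lists of cell type markers, that of fibroblasts had the lowest median at day 3 against day 0. It was -2.25, against -3.27 for the 10 genes, and the other marker lists had medians between -1.32 and 0.19. Of 15 fibroblast markers, 12 to 13 were well above background per array at day 0, 6 to 8 at day 3, and at day 7 13 in the PKm1 knock-in line, 7 in the PKm2 knock-in line and 12 in the wild type line. Their summed scaled signal lay between 7412 and 12289 at day 0 and between 6170 and 7244 at day 3, and at day 7 it was 19164, 4234 and 27749 in the same order of lines. Vim, which is widely expressed, made up 47.1 to 82.2 percent of that sum. Without Vim the other markers summed to 3925, 1784 and 7401 in the PKm1 knock-in line, to 3915, 1603 and 1341 in the PKm2 knock-in line, and to 5228, 1920 and 4941 in the wild type line at days 0, 3 and 7. Of 13 fibroblast markers tested, 12 averaged lower at day 3 than at day 0 and 1 higher. In limma 1 of the 13 passed, where 4.05 percent of all genes did. It was Ptx3, at least 3.32-fold lower (limma adjusted p = 0.0497, called in 7 of 24 alternatives). Twist2 and Prrx1, mesenchymal transcription factor genes, were at least 3.21-fold and 4.21-fold lower in the means without passing (limma adjusted p = 0.107 and 0.0881). Ptx3, Twist2 and Prrx1 were well above background on 0 of 3 day 3 arrays, and Ptx3 on 2 of 3 day 0 arrays. The transcript of Twist2 was 5.99, 2.32 and 5.93 in the PKm1 knock-in line, with 4.74, 3.28 and 2.32 in the PKm2 knock-in line, and 6.97, 3.55 and 7.19 in the wild type line. Other markers took other courses. Cd34 was higher at day 3 than at day 0 in both knock-in lines, and Thy1 was lowest at day 7 in each line. Lum was well above background on 2 of 3 arrays at day 0 and on 0 of 3 at day 7. Pdgfra at day 7 stood at 12.10 in the PKm1 knock-in line, 6.78 in the PKm2 knock-in line and 3.54 in the wild type line. The marker lists too were chosen with earlier results of these data known, so their p-values and shares between days are descriptions. The part of fibroblasts in the matrix values was not tested.

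The sum of smooth muscle markers did not show a common dip at day 3, although most of the markers tested were lower. Acta2, Tagln and Des were lower at day 3 than at day 0 in 3 of 3 lines, and Cnn1 was higher in 3 of 3. The median of the 4 tested was -1.23, and 0 passed in limma. The 7 markers summed to 1558, 1687 and 36786 in the PKm1 knock-in line, to 4689, 1169 and 860.0 in the PKm2 knock-in line, and to 1338, 1323 and 34985 in the wild type line, at days 0, 3 and 7. The sum of 10 parietal endoderm markers, cells that lay down basement membrane, reached 872815 at day 7 in the PKm1 knock-in line, against 70232 in the PKm2 knock-in line and 170232 in the wild type line, and lay between 46746 and 69049 on the other 6 arrays. The 9 visceral endoderm markers reached 474281, 2792 and 7116 at day 7 in that order of lines. ES cell markers summed to 194638 in the PKm1 knock-in line, 457311 in the PKm2 knock-in line and 293552 in the wild type line at day 7. Thus the array with the lowest day 7 signal of the returning genes was also, among day 7 arrays, the one with the highest ES cell and the lowest smooth muscle and fibroblast marker sums, and the part of this in the matrix values was not tested. Cartilage and bone markers gave sums of 431 to 673 at day 0 and of 465 to 1110 at day 7.

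**Figure D4:**
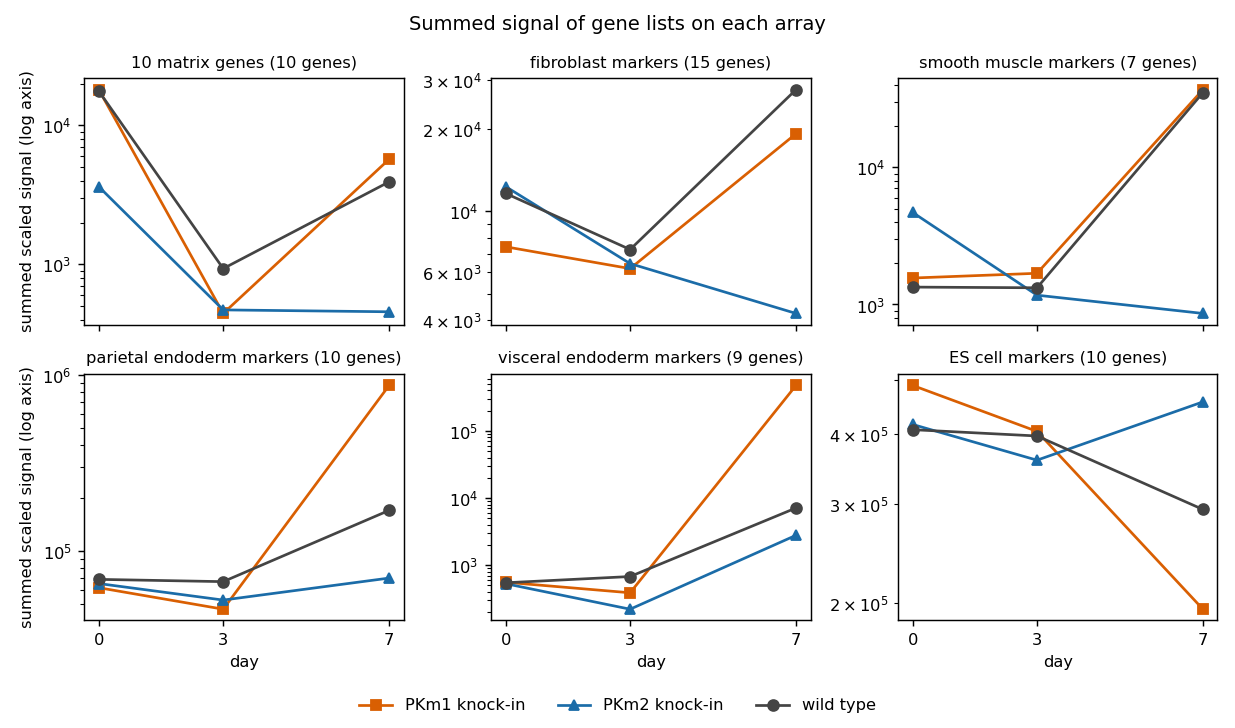
The summed scaled signal (vertical log axis) of the 10 genes and of 5 marker lists at days 0, 3 and 7 on each array, 1 line per cell line. The sum of the 10 genes and those of fibroblast and smooth muscle markers are higher at day 7 than at day 3 in the PKm1 knock-in and wild type lines. In the PKm2 knock-in line the fibroblast and smooth muscle sums are lower at day 7 than at day 3. The sum of the 10 genes is nearly level there (470.7 at day 3 and 456.2 at day 7), with 6 genes higher and 3 lower at day 7. The higher genes include Col6a2 and Col6a3, which were not well above background on either array, so their direction was not measured.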

How the data were processed

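Total RNA was labelled with Cy3 and read on 9 one-colour Agilent arrays, per the labels' protocols. Spot intensity, background-corrected within each array, came from the authors' run of Agilent Feature Extraction 10.10 (file headers and the submitters' processing notes). These deposited intensity values differed from the series' value table by at most 0.497 percent. Control and outlier spots were left out and spots of a probe averaged. Signals were scaled to the 75th percentile of each array, floored at 5 and log2 transformed. Of 55681 probes, 27235 had 1 gene symbol through their accession (GRCm38.p6 table) and 28446 none. The probe with the highest mean stood for a gene. Genotype and day were terms, without interaction, of a linear model over 9 arrays in limma 3.58.1 (R 4.3.3), with Benjamini and Hochberg adjustment over 15016 genes at 0.05, after tests on simulated data. Precision is limited by how few arrays there are.

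The members and lists were chosen with earlier results of these data known. Genes named from the 8 related lists were the passing ones with the largest change, up to 4 per comparison, or the 2 with the smallest p, and not every gene this rule selects is described. Likeness was ranked by Pearson correlation, 5 genes per course, of which 1 is not reported here. The labels carry no replicate numbers, and the line is the block of each day comparison. Alternatives covered background, scaling, floor, filter, probe choice, moderation, blocks, slides and left-out arrays, lines or days. Python 3.11.15, numpy 2.4.6, pandas 2.3.3 and matplotlib 3.10.9 were used.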

Additional observations from a re-analysis of the deposited data

Results flagged for a closer look

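Col1a1 moved in opposite directions by more than 2-fold in the knock-in lines. At day 7 it stood 1.84 log2 units above day 0 in the PKm1 knock-in line (log2 signal 10.62 at day 7 and 8.78 at day 0) and -2.63 log2 units from day 0 in the PKm2 knock-in line (5.58 at day 7 and 8.21 at day 0). The wild type line lay above day 0 by 0.46. Each line has 1 array per day, so this difference was not tested. The day 7 array of the PKm2 knock-in line is alone on its slide, so slide and sample cannot be told apart there.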

How the results depend on the processing

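No gene of the 10 passed between lines in any of 732 alternative fits over 30 comparisons, and the sign changed in 23 of them, in 9 comparisons. In the PKm1 knock-in line against wild type, leaving out arrays, lines or days gave ranges of -0.80 to 0.88 for Col1a1, -0.85 to 0.65 for Col1a2, -0.73 to 0.62 for Col3a1, -1.65 to 0.19 for Dcn and -1.06 to 0.29 for Lox. Col1a2 was also -0.016 with scaling to detected probes and -0.125 with the slide as a block, and Col3a1 was 0.008 with normexp. In the PKm2 knock-in line, Col6a2 against wild type ranged from -0.50 to 0.11 and was 0.042 with normexp, and against the PKm1 knock-in line Dcn ranged from -2.64 to 0.51, Mgp from -1.32 to 0.026, and Col5a1 was 0.037 with the slide as a block. The median over the 10 genes moved beyond its spread in 2 comparisons: at day 3 it was -1.72 with normexp against -3.27, and between the PKm1 knock-in and wild type lines it ranged from -0.72 to 0.014 with arrays left out. Removing the line as the block left the medians as they were, since each day holds every line (no replicate block: -3.27, -1.49 and 1.55 for the day comparisons). The number of genes lost for good was 5 and that of returning genes 4. At a 4-fold threshold 3 were lost for good, with normexp 2 were lost and 3 returning, at 1.5-fold 2 were returning and with quantile scaling 3. The cause was not tested. Of all genes, 0 passed at day 7 against day 3, but 2385 with day 7 of the PKm2 knock-in line left out, 987 with the slide as a block, 260 with trended moderation and 35 with normexp. At day 3 against day 0 the count of 608 ranged from 0 to 1426, and at day 7 against day 0 the count of 14 ranged from 0 to 227. Scaling to detected probes turned the median over all genes at day 7 against day 3 to 0.07 from -0.13. Lox, Col6a2 and Col6a3 are limited by signal over background.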
